A study of Mus musculus with 20 samples.

Results

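The oocyte secreted factors are the genes Gdf9, Bmp15, Fgf8, Oosp1, Oosp2 and Oosp3, which encode proteins that the oocyte releases. They were found by symbol, and all 6 were listed among the 53722 genes of the oocyte table and the 55291 genes of the spermatogonia table. The data come from mouse germ cells in which Chd4, the gene of the ATPase of the NuRD chromatin remodelling complex, had been targeted with a Cre transgene. RNA was measured in 20 libraries, as 10 groups of 2. The Ddx4-Cre knockout (DcKO) had the genotype Chd4 f/-; Ddx4-Cre Tg/+, and its control (Dctrl) was Chd4 f/+; Ddx4-Cre Tg/+, so that both carried the germ cell Cre and the control had a single floxed copy beside a wild-type copy. These genotypes were sampled as non-growing oocytes (NGO) at postnatal day 1 (P1) and day 5 (P5), and as undifferentiated spermatogonia at day 3 (P3). The Gdf9-iCre knockout (GcKO) was Chd4 f/f; Gdf9-iCre Tg/+, and its control (Gctrl) was Chd4 f/f with no Cre. Both were sampled at day 10 (P10), as NGO and as growing oocytes (GO). The background of all groups mixed the strains C57BL/6, 129S1/Sv and FVB/NJ. The Cre of the GcKO is driven by the promoter of Gdf9, which is itself 1 of the 6 genes, and the Gctrl lacks that transgene. No source says that replicates came from separate animals, and any p-value here reflects how far the libraries of a group lie apart, which may be technical variation only.

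GDF9 and BMP15 are closely related ligands of the TGF-beta superfamily. They bind BMPR2 with a type I receptor on the granulosa cells around the oocyte, act through SMAD proteins, and drive follicle growth and the expansion of the cumulus. FGF8 is a fibroblast growth factor that in the mouse acts with BMP15 on cumulus cell glycolysis. OOSP1, OOSP2 and OOSP3 are small secreted proteins of oocytes whose functions are less well known. In the mouse, the transcription factors FIGLA, NOBOX, SOHLH1 and LHX8 and the oocyte-specific TBP paralogue TBPL2 control many genes of the young oocyte, and Gdf9 is a known target of NOBOX.

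In GRCm38 coordinates of GENCODE M21, Gdf9 lies at chr11:53431023-53437904 on the plus strand, Bmp15 at chrX:6314107-6320721 on the minus strand and Fgf8 at chr19:45736798-45742915 on the minus strand. The Oosp genes are neighbours on chromosome 19. Oosp2 (chr19:11647279-11660559, minus), Oosp1 (chr19:11667460-11691150, minus) and Oosp3 (chr19:11697055-11711874, plus) span 64.6 kb, with gaps of 6.9 kb between Oosp2 and Oosp1 and 5.9 kb between Oosp1 and Oosp3. The other genes do not overlap exons of a neighbour. Exons of Oosp3 overlap the pseudogene Gm19224 on the other strand, which was at 0 TPM in every oocyte library.

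RefSeq windows (GRCm38.p6) from 250 bases before to 50 bases after the gene start were matched for 3 of the 6 genes, Bmp15, Oosp1 and Oosp2. No window was at hand for Gdf9, Fgf8 and Oosp3, so the choice of windows does not follow from the knockout effect. The GO libraries of GcKO lay below those of Gctrl for Bmp15, Oosp1 and Oosp2, and also for Oosp3. Capitals mark CANNTG, the E-box that basic helix-loop-helix factors such as FIGLA bind, and TAATTA, a core that homeodomain factors such as NOBOX bind. All 3 genes with a window are on the minus strand and the sequences read 5′ to 3′ along the gene.
Bmp15 (chrX:6320675-6320974): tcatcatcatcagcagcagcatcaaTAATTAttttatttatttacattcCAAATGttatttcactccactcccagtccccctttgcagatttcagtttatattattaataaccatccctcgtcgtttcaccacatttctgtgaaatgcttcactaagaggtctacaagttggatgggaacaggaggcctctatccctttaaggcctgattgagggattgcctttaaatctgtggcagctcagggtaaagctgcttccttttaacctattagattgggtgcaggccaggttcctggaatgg
Oosp1 (chr19:11691002-11691301): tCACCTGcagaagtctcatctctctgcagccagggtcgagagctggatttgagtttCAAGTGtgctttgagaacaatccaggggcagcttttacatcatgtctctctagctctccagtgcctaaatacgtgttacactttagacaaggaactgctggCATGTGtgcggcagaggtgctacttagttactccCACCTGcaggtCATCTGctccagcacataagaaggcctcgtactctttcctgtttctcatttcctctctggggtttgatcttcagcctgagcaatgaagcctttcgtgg
Oosp2 (chr19:11660510-11660809): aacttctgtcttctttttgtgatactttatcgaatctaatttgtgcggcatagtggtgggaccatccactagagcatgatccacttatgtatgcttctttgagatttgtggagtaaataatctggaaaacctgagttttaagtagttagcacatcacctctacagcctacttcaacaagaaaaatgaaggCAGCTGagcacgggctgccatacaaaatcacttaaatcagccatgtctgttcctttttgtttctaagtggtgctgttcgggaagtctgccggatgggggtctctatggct

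Counted from the RefSeq gene start, which can differ from the GENCODE coordinates above, the Bmp15 window held TAATTA at -225 and 1 CANNTG at -201. The Oosp1 window held 5 CANNTG, at -249, -194, -93, -59 and -48. The RefSeq start of Oosp1 lies inside its GENCODE span, so those at -93, -59 and -48 fall within that span. The Oosp2 window held 1, at -60, of the form CAGCTG. On both strands, CANNTG was in 72.3% of 32851 promoter windows of this length, CAGCTG in 16.3% and TAATTA in 5.29%, so an E-box is a common feature of such windows. TAATTG, the other homeodomain core searched, was in 8.0% of all windows and in none of the 3.

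Depth recovered from the TPM values ran from 15.36 M to 30.14 M reads per library. Chd4 fell to 3.11 ± 1.71 TPM in P1 NGO DcKO, against 27.9 ± 4.66 TPM in Dctrl (mean ± SD, n = 2 each), with limma adjusted p = 0.0136. It was 6.61 ± 2.36 against 16.2 ± 2.43 TPM at P5, 0.791 ± 0.77 against 1.74 ± 0.157 TPM in P10 NGO and 1.08 ± 0.641 against 2.26 ± 0.988 TPM in P10 GO, knockout first, and none of these 3 differences passed the test (limma adjusted p = 0.351, 0.615 and 0.488). In P10 GO, Chd4 was 0.631 and 1.54 TPM in GcKO and 1.56 and 2.96 TPM in Gctrl, so that GcKO replicate 2 was practically level with Gctrl replicate 1. In spermatogonia it was 46.0 ± 8.13 TPM in DcKO and 267 ± 26.8 TPM in Dctrl (limma adjusted p = 0.0671). The 10 oocyte marker genes summed to 46091 to 115214 TPM in oocyte libraries and 3277 to 3632 TPM in spermatogonia, and in GO they summed to more in both GcKO libraries (104815 and 115214 TPM) than in both Gctrl libraries (52975 and 54161 TPM). Spermatogonia markers (12 genes, of which Ddx4 and Dazl also mark oocytes) summed to 3964 to 4746 TPM in spermatogonia, where Nanos2 was at 0 in 1 DcKO library, and to 549.9 to 1790.1 TPM in oocytes. Stromal markers summed to at most 22.9 TPM and endothelial and blood markers to at most 28.9 TPM in oocyte libraries, except 104 TPM for the endothelial and blood set in GcKO GO replicate 1. In a bulk library, fewer cells of a type and less RNA per cell cannot be told apart.

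Among oocytes, the 6 genes had their highest group mean in P10 GO and their lowest in P1 NGO DcKO, where Fgf8 was tied at 0 with P10 NGO GcKO. In control GO, Oosp2 was the most abundant of the 6, at 4112 ± 223 TPM, followed by Oosp3 at 738 ± 86.7 TPM, Gdf9 at 688 ± 45.5 TPM, Oosp1 at 647 ± 112 TPM, Bmp15 at 495 ± 147 TPM and Fgf8 at 4.71 ± 2.45 TPM (mean ± SD, n = 2). The libraries of neighbours in this order from Oosp3 to Bmp15 overlapped, while Oosp2 stood above and Fgf8 below all of them. In control P1 NGO the order was different: Gdf9 led with 32.5 ± 6.95 TPM, Oosp2 had 10.3 ± 1.76 TPM, Bmp15 1.94 ± 0.964 TPM, Oosp3 0.618 ± 0.418 TPM, Oosp1 0.193 ± 0.273 TPM and Fgf8 0.0464 ± 0.0656 TPM.

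**Figure D1:**
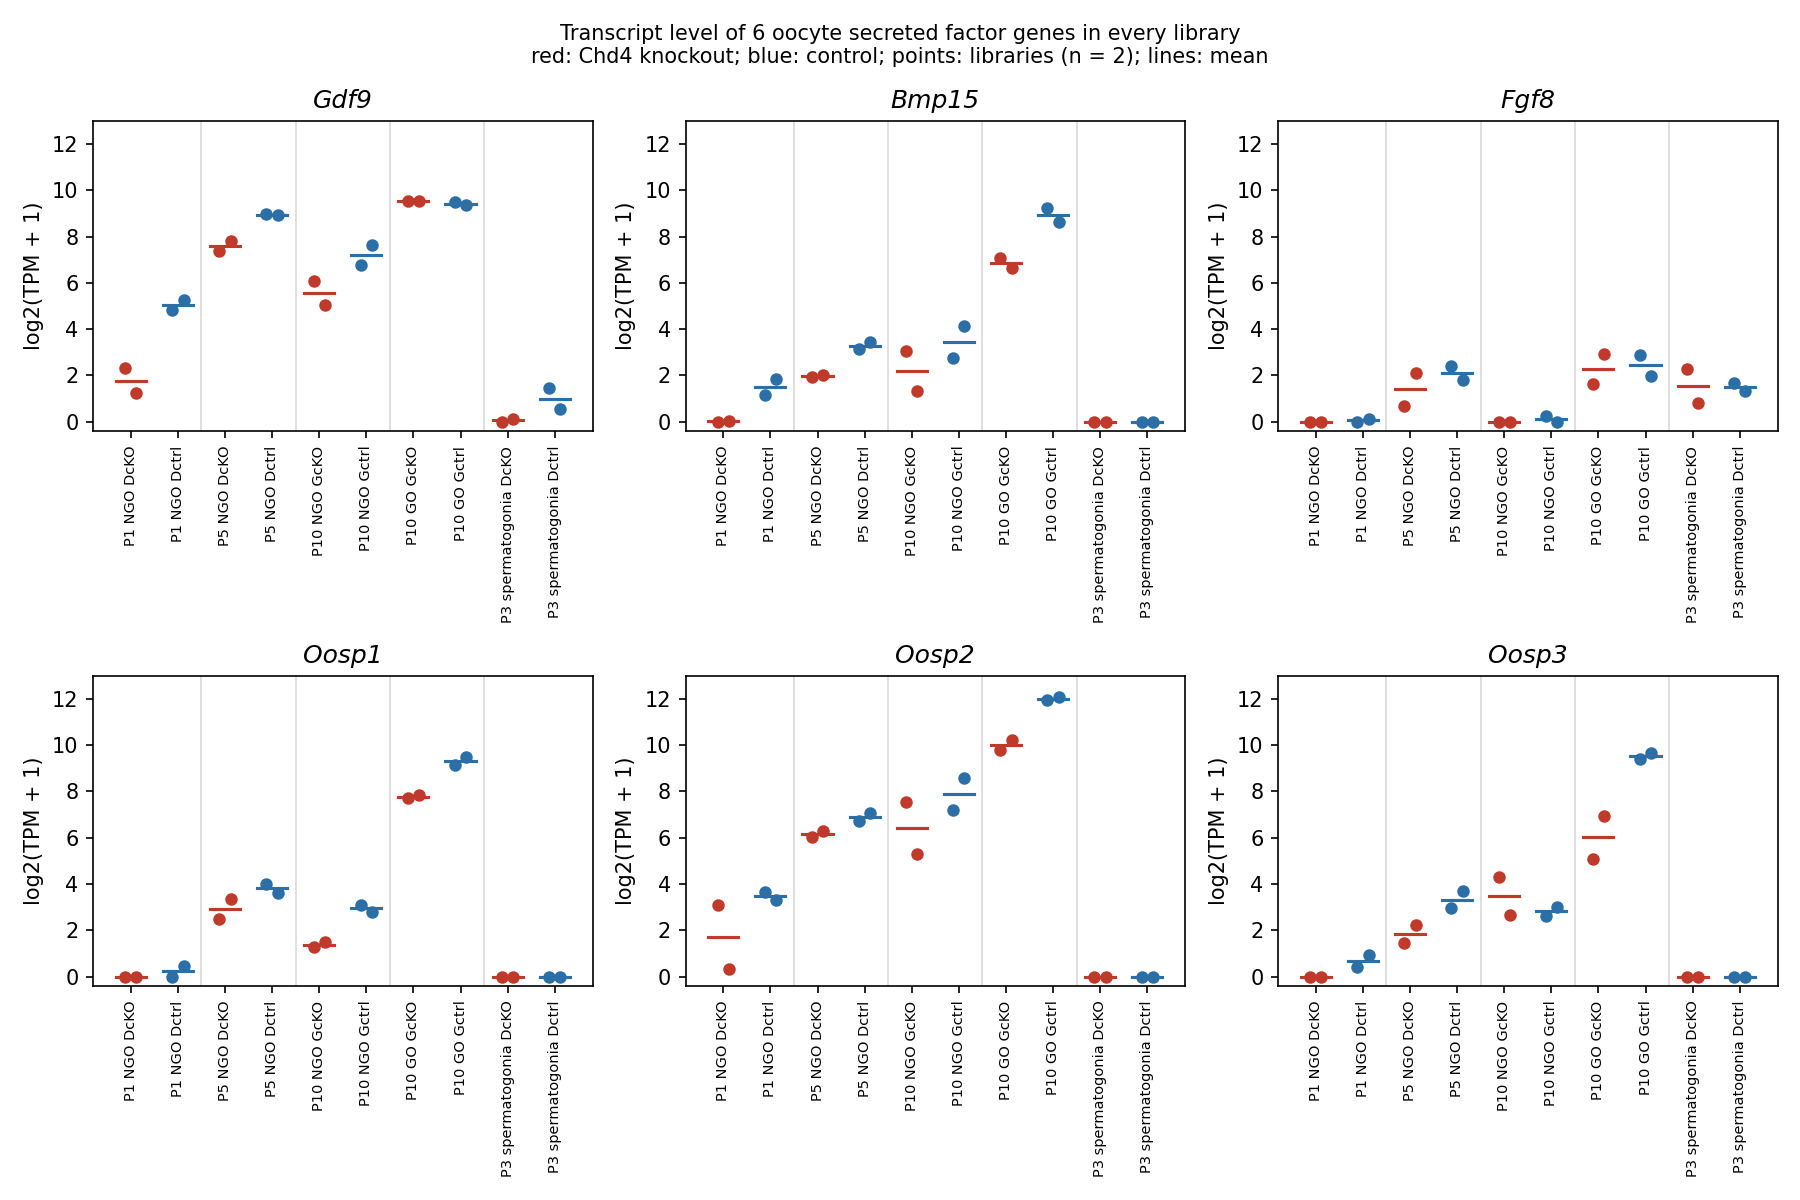
Each panel plots log2(TPM + 1) of a secreted factor gene in all 20 libraries, with the 2 libraries of a group as points, their mean as a line, knockouts in red and controls in blue. All 6 genes stand higher in P10 GO than in P10 NGO, Bmp15 and the Oosp genes are at 0 TPM in spermatogonia, and Oosp3 shows the widest gap on this log2 scale between GcKO and Gctrl in GO (77.8 against 738 TPM).

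Across the 10 groups, Gdf9 ranked from P10 GO GcKO (742 ± 11.8 TPM) through P10 GO Gctrl (688 ± 45.5 TPM), P5 NGO Dctrl (492 ± 6.1 TPM), P5 NGO DcKO (194 ± 39.6 TPM), P10 NGO Gctrl (153 ± 61.4 TPM), P10 NGO GcKO (49.3 ± 24.9 TPM) and P1 NGO Dctrl (32.5 ± 6.95 TPM) to P1 NGO DcKO (2.67 ± 1.83 TPM) and both spermatogonia groups. Its neighbours P5 NGO DcKO and P10 NGO Gctrl overlapped, as did P10 NGO GcKO and P1 NGO Dctrl, and P1 NGO DcKO and the spermatogonia of Dctrl. Bmp15, Oosp1, Oosp2 and Oosp3 all ranked P10 GO Gctrl first and P10 GO GcKO second, with no overlap between these 2 groups. For Bmp15 and Oosp2 the third place was P10 NGO Gctrl (11.2 ± 7.79 and 265 ± 169 TPM), for Oosp1 it was P5 NGO Dctrl (13.2 ± 2.79 TPM) and for Oosp3 P10 NGO GcKO (12 ± 9.29 TPM). Fgf8 gave no such order, as the libraries of its 6 highest groups overlapped from each group to the next.

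Between P1 and P5, Gdf9, Oosp1 and Oosp2 rose in NGO of both genotypes, and Oosp3 rose in Dctrl. In Dctrl, Gdf9 was 496 and 487 TPM at P5 and 27.6 and 37.4 TPM at P1. In DcKO it was 166 and 222 TPM at P5 and 3.96 and 1.38 TPM at P1. No P5 library of either genotype overlapped a P1 library of the same genotype. On the log2(TPM + 1) scale used for every difference here, the change was 3.90 (SE 0.407, limma adjusted p = 0.000281) in Dctrl and 5.81 (SE 0.407, limma adjusted p = 1.15e-05) in DcKO.

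Bmp15 was 7.84 and 9.90 TPM at P5 and 1.26 and 2.62 TPM at P1 in Dctrl, and 2.82 and 3.05 TPM at P5 against 0 and 0.0295 TPM at P1 in DcKO. The P5 libraries were above the P1 libraries in both genotypes, but its changes of 1.78 in Dctrl and 1.96 in DcKO did not pass the test (limma adjusted p = 0.128 and 0.086). Fgf8 was 4.26 and 2.46 TPM at P5 and 0 and 0.0928 TPM at P1 in Dctrl, and 0.609 and 3.33 TPM at P5 against 0 in both P1 libraries in DcKO. Its changes of 2.03 and 1.40 did not pass either (limma adjusted p = 0.0642 and 0.209).

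The 3 Oosp genes were barely detected or low at P1 and higher at P5. In Dctrl, Oosp1 was 15.1 and 11.2 TPM at P5 and 0 and 0.387 TPM at P1, Oosp2 was 105 and 134 TPM against 11.5 and 9.05 TPM, and Oosp3 was 6.85 and 11.9 TPM against 0.322 and 0.913 TPM. The changes were 3.57 (limma adjusted p = 0.000337), 3.41 (limma adjusted p = 0.0343) and 2.66 (limma adjusted p = 0.0367). In DcKO, Oosp1 was 4.55 and 9.15 TPM at P5 and 0 at P1, with a change of 2.91 (limma adjusted p = 0.00116), and Oosp2 was 64.7 and 76.9 TPM against 7.58 and 0.266 TPM, with a change of 4.44 (limma adjusted p = 0.00874). Oosp3 in DcKO was 1.75 and 3.69 TPM at P5 and 0 at P1, and its change of 1.84 did not pass (limma adjusted p = 0.144).

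With age, 4 of 6 genes thus passed in Dctrl and 3 of 6 in DcKO, where 2.72% and 3.89% of all 20470 genes tested rose. All 6 had P5 libraries above P1 libraries in both genotypes, as did 27.1% of all genes in Dctrl and 28.3% in DcKO. The calls of Oosp2 and Oosp3 in Dctrl were lost when any single Dctrl library was left out (limma adjusted p between 0.0991 and 0.247), while those of Gdf9 and Oosp1 were not. In DcKO the call of Oosp2 was lost without P1 replicate 2 (limma adjusted p = 0.0582), P5 replicate 1 (0.0548) or P5 replicate 2 (0.0681).

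At P10, all 6 genes were higher in growing than in non-growing oocytes. In Gctrl, Bmp15 was 599 and 391 TPM in GO and 5.72 and 16.7 TPM in NGO, Gdf9 was 720.3 and 656 TPM in GO and 109.7 and 197 TPM in NGO, and Fgf8 was 6.44 and 2.98 TPM in GO and 0.192 and 0 TPM in NGO. Oosp1 was 568 and 726 TPM in GO and 7.60 and 6.03 TPM in NGO. Oosp2 was 3954 and 4270.1 TPM in GO and 146 and 384 TPM in NGO, and Oosp3 was 677 and 799.8 TPM in GO and 5.20 and 7.12 TPM in NGO. No GO library overlapped an NGO library for any of the 6 genes, as for 23.2% of all genes in that direction. In order of size the changes were 6.70 for Oosp3, 6.37 for Oosp1, 5.47 for Bmp15, 4.11 for Oosp2, 2.32 for Fgf8 and 2.22 for Gdf9, with limma adjusted p from 8.6e-07 (Oosp1) to 0.00897 (Fgf8). All 6 passed, where 11.0% of all genes rose. The call of Fgf8 was lost without Gctrl NGO replicate 2 (limma adjusted p = 0.0516) or Gctrl GO replicate 1 (0.0794).

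In GcKO the same 6 genes were higher in GO than in NGO. Bmp15 was 132 and 98.2 TPM in GO and 7.28 and 1.5 TPM in NGO, Gdf9 was 750.2 and 734 TPM against 66.9 and 31.7 TPM, and Fgf8 was 2.07 and 6.51 TPM against 0 in both NGO libraries. Oosp1 was 207 and 231 TPM in GO and 1.42 and 1.78 TPM in NGO, Oosp2 was 889 and 1178 TPM against 187 and 38.7 TPM, and Oosp3 was 32.7 and 123 TPM against 18.6 and 5.42 TPM. The GO libraries again stood above the NGO libraries for all 6 genes. The changes were 6.40 for Oosp1, 4.66 for Bmp15, 3.98 for Gdf9, 3.57 for Oosp2, 2.53 for Oosp3 and 2.26 for Fgf8, and all 6 passed, where 11.5% of all genes rose (56.3% of the called genes, or 45.1% after quantile normalization; limma adjusted p from 2.54e-06 for Oosp1 to 0.0152 for Oosp3). Without GcKO NGO replicate 2 or GcKO GO replicate 2, the calls of Fgf8, Oosp2 and Oosp3 were lost (limma adjusted p between 0.0541 and 0.137), which left 3 of 6.

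**Figure D2:**
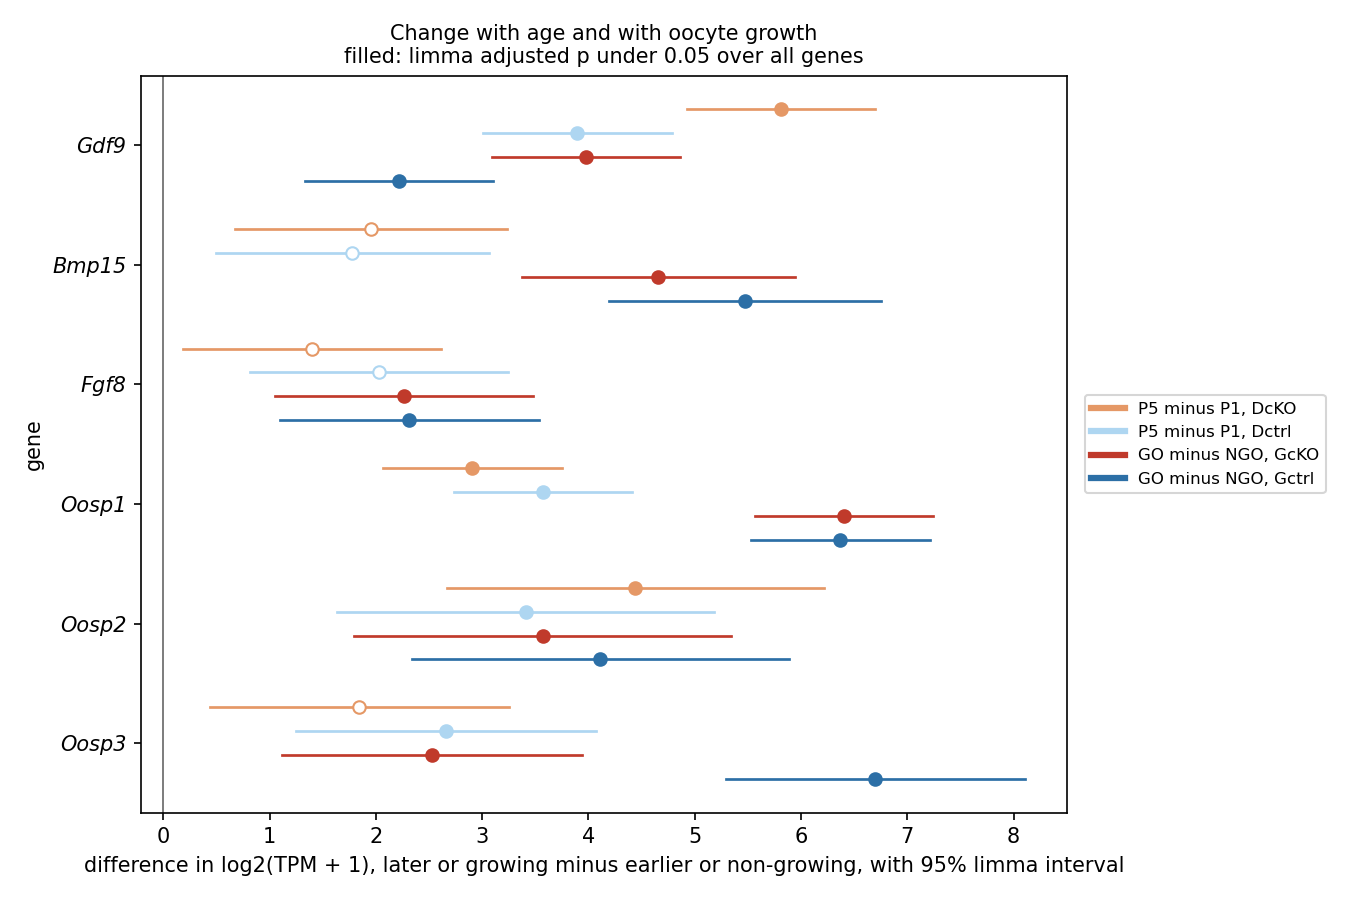
Points give the difference in log2(TPM + 1) between P5 and P1 NGO and between P10 GO and NGO for each gene in knockouts and controls, with 95% limma intervals as lines and filled points for adjusted p under 0.05. Oosp3 has its GO change at 2.53 in GcKO and 6.70 in Gctrl, whereas the GO changes of Oosp1 lie at 6.40 and 6.37.

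NGO of P10 Gctrl were set against NGO of P5 Dctrl, where age cannot be told apart from genotype and Cre. Gdf9 was 109.7 and 197 TPM in P10 Gctrl and 496 and 487 TPM in P5 Dctrl, a change of -1.74 (SE 0.407, limma adjusted p = 0.00951), and Fgf8 was 0.192 and 0 TPM against 4.26 and 2.46 TPM, a change of -1.97 (SE 0.557, limma adjusted p = 0.0245). The other 4 genes did not pass. In the same comparison 17.1% of all genes fell and the median of all genes was -0.47, so that relative to this median the changes are smaller by as much. Quantile normalization brought the median to 0 and the share of all called genes that were higher to 50.1%, against 24.5% without it. Gdf9 lost its call without P5 Dctrl replicate 1 (limma adjusted p = 0.059) or P10 Gctrl replicate 1 (0.0775). Fgf8 lost its call without either of these and without P10 Gctrl replicate 2 (limma adjusted p between 0.0658 and 0.148), and after quantile normalization (0.161).

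Chd4 knockout went with a lower Gdf9 level at P1. Gdf9 was 3.96 and 1.38 TPM in DcKO, from 72 and 31 recovered reads, against 27.6 and 37.4 TPM in Dctrl. Both knockout libraries were far below both control libraries. The difference was -3.27 (SE 0.407, limma adjusted p = 0.00215), and over the 11 alternative settings it lay between -3.80 and -2.74. The call was lost in a fit of only these 2 groups (limma adjusted p = 0.155) and with a replicate block within each stage (0.0531).

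Bmp15 was at 0 and 0.0295 TPM in P1 DcKO, which is 0 reads and 1 read, against 1.26 and 2.62 TPM or 29 and 64 reads in Dctrl. The groups did not overlap, but the difference of -1.49 did not pass (limma adjusted p = 0.361), and with a pseudocount of 0.1 TPM instead of 1 it was -4.08 and passed (limma adjusted p = 0.014). Oosp2 was 7.58 and 0.266 TPM in DcKO and 11.5 and 9.05 TPM in Dctrl, a difference of -1.77 (limma adjusted p = 0.492). Oosp3 was at 0 reads in both DcKO libraries, which allows up to 0.406 and 0.328 TPM (3 reads, counting error only), against 0.322 and 0.913 TPM in Dctrl. Oosp1 and Fgf8 had 0 reads in DcKO and 3 reads and 1 read over both Dctrl libraries, so that no difference was detectable at this depth.

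At P1, 1 of 6 genes thus fell, where 0.84% of all genes fell, and 4 of 6 had knockout libraries below control libraries, where 22.5% of all genes did. The median difference was -1.08 over the 6 genes and 0 over all genes. Of 16 supporting cell markers, 4 to 7 were above 1 TPM in a library. They summed to 12.6 and 81.9 TPM in DcKO and 79.8 and 139 TPM in Dctrl, with Amh and Fshr at 0 in all 4 libraries, and their part in the result was not tested.

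At P5 every secreted factor had a lower mean in DcKO, and none passed the test. Gdf9 was 166 and 222 TPM in DcKO and 496 and 487 TPM in Dctrl, a difference of -1.35 (SE 0.407, limma adjusted p = 0.155). Bmp15 was 2.82 and 3.05 TPM in DcKO and 7.84 and 9.90 TPM in Dctrl, a difference of -1.32 (limma adjusted p = 0.403). Oosp3 was 1.75 and 3.69 TPM in DcKO and 6.85 and 11.9 TPM in Dctrl, a difference of -1.48 (limma adjusted p = 0.387). Oosp1 was 4.55 and 9.15 TPM in DcKO and 15.1 and 11.2 TPM in Dctrl, a difference of -0.90 (limma adjusted p = 0.372), and Oosp2 was 64.7 and 76.9 TPM against 105 and 134 TPM, a difference of -0.74 (limma adjusted p = 0.835). The groups of these 5 genes did not overlap, as for 23.4% of all genes in that direction, whereas Fgf8 overlapped, with 0.609 and 3.33 TPM in DcKO and 4.26 and 2.46 TPM in Dctrl.

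By limma, 0 of 6 genes fell at P5, where 0.313% of all genes fell, and 4 of 6 had an unadjusted p under 0.05, where 11.8% of all genes did. The median difference was -1.11 over the 6 genes and 0 over all genes. Supporting cell markers summed to 44.0 and 70.2 TPM in DcKO and 15.8 and 8.80 TPM in Dctrl, with 2 to 7 of 16 above 1 TPM, and Inhbb and Cldn11 at 0 in all 4 libraries. Inha, the inhibin alpha subunit and 1 of these markers, passed with a difference of 3.76 (SE 0.643, limma adjusted p = 0.0174), at 28.4 ± 21.7 TPM in DcKO and 1.13 ± 1.49 TPM in Dctrl, and lost its call without DcKO replicate 2 (0.108) or Dctrl replicate 1 (0.0643). The part of these markers in the P5 values was not tested.

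In P10 NGO, Gdf9 and Oosp1 were lower in both GcKO libraries than in both Gctrl libraries. Gdf9 was 66.9 and 31.7 TPM in GcKO and 109.7 and 197 TPM in Gctrl, and Oosp1 was 1.42 and 1.78 TPM in GcKO and 7.60 and 6.03 TPM in Gctrl. This order held for 17.0% of all genes. The differences of -1.65 (SE 0.407) and -1.58 (SE 0.385) came close to the threshold without passing it (limma adjusted p = 0.0667 and 0.0634). Gdf9 passed in 4 of 11 alternatives. These were without GcKO replicate 1 or Gctrl replicate 1, after quantile normalization (limma adjusted p = 0.0366) and with a filter of 5 TPM (0.0477). Over all genes, 954 of 20470 passed after quantile normalization and 428 of 13437 with that filter, against 393 of 20470 in the main fit.

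The other 4 genes overlapped between the groups in P10 NGO. Bmp15 was 7.28 and 1.5 TPM in GcKO and 5.72 and 16.7 TPM in Gctrl, a difference of -1.26 (limma adjusted p = 0.33), and Oosp2 was 187 and 38.7 TPM in GcKO and 146 and 384 TPM in Gctrl, a difference of -1.46 (limma adjusted p = 0.438). Oosp3 was 18.6 and 5.42 TPM in GcKO and 5.20 and 7.12 TPM in Gctrl, so that its highest NGO library was a knockout. Fgf8 was at 0 reads in GcKO and 2 reads over both Gctrl libraries. By limma, 0 of 6 genes fell, where 0.899% of all genes fell, and 2 of 6 had an unadjusted p under 0.05, where 15.6% of all genes did. Supporting cell markers summed to 24.1 and 4.06 TPM in GcKO and 4.60 and 6.46 TPM in Gctrl, with 1 to 5 of 16 above 1 TPM and Amh, Nr5a1 and Cldn11 at 0 in all 4 libraries, and their part in these values was not tested.

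In P10 GO, Bmp15 and the Oosp genes were lower in GcKO while Gdf9 was not. Oosp3 was 32.7 and 123 TPM in GcKO and 677 and 799.8 TPM in Gctrl, a difference of -3.51 (SE 0.645, limma adjusted p = 0.00326). Bmp15 was 132 and 98.2 TPM in GcKO and 599 and 391 TPM in Gctrl, a difference of -2.08 (SE 0.587, limma adjusted p = 0.0347). Oosp1 was 207 and 231 TPM in GcKO and 568 and 726 TPM in Gctrl, a difference of -1.55 (SE 0.385, limma adjusted p = 0.018). The groups did not overlap for any of these 3, and all 3 fell by the test.

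Oosp2 had the largest gap in TPM, at 889 and 1178 TPM in GcKO and 3954 and 4270.1 TPM in Gctrl. Its groups did not overlap, but its difference of -2.0 (SE 0.813) did not pass (limma adjusted p = 0.139). Its SE was the largest of the 6 genes, and all oocyte groups share that estimate of the spread. Gdf9 was 750.2 and 734 TPM in GcKO and 720.3 and 656 TPM in Gctrl, with both knockout libraries slightly above both control libraries, an order that 30.3% of all genes showed. Its difference of 0.11 had a 95% interval from -0.78 to 1.00 and limma adjusted p = 1. Fgf8 overlapped, at 2.07 and 6.51 TPM in GcKO and 6.44 and 2.98 TPM in Gctrl.

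In GO, 3 of 6 genes fell, where 4.69% of all genes fell and 9.12% rose (66.0% of the called genes rose, or 52.1% after quantile normalization), and 4 of 6 did not overlap in that direction, where 18.0% of all genes did. The median difference was -1.78 over the 6 genes and 0.06 over all genes. The call of Oosp3 held without any single GO library. That of Bmp15 was lost with no filter on low values (limma adjusted p = 0.0606) and without GcKO replicate 1 (limma adjusted p = 0.0753), GcKO replicate 2 (0.145), Gctrl replicate 1 (0.202) or Gctrl replicate 2 (0.0781), and that of Oosp1 without GcKO replicate 1 (0.0674), Gctrl replicate 1 (0.0507) or Gctrl replicate 2 (0.117), so that the count fell to 1 without GcKO replicate 1 or either Gctrl library. In a fit of only the 2 GO groups none of the 3 passed (limma adjusted p between 0.0963 and 0.172), where 0 of all 20470 genes passed. Supporting cell markers summed to 15.6 and 29.0 TPM in GcKO and 3.02 and 0.63 TPM in Gctrl, with 0 to 5 of 16 above 1 TPM and Inhbb, Fshr, Nr5a1 and Cldn11 at 0 in all 4 libraries. Of the 8 markers tested, 7 lay above 0, with a median difference of 1.0, and 1 passed. This was Krt19, a keratin, at 3.37 and 2.74 TPM in GcKO and 0 in both Gctrl libraries (difference 2.02, limma adjusted p = 0.0219), and its call was lost without any single GO library (between 0.0549 and 0.0937). Foxl2 and Wt1, which mark granulosa cells, were 4.69 and 4.90 TPM in GcKO replicate 2, at most 0.086 TPM in GcKO replicate 1 and 0 in Gctrl, and the part of these markers in the result was not tested.

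**Figure D3:**
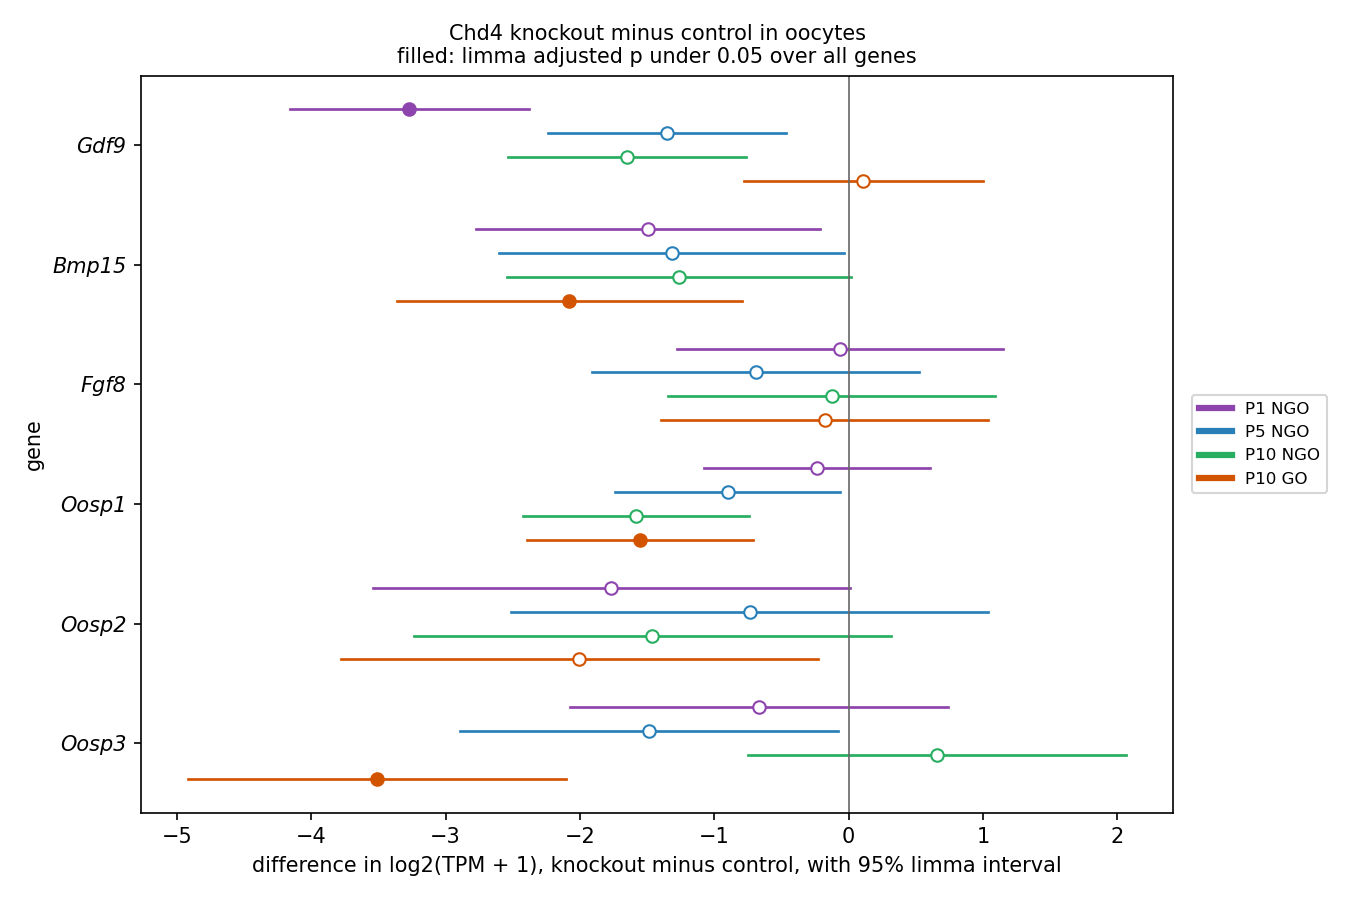
Points give the knockout minus control difference in log2(TPM + 1) of each secreted factor gene in the 4 oocyte comparisons, with 95% limma intervals as lines and filled points for adjusted p under 0.05. Gdf9 runs from -3.27 in P1 NGO to 0.11 in P10 GO, and Oosp3 has the lowest value in P10 GO, at -3.51.

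The knockout effect of Oosp3 differed between GO and NGO. The difference of the 2 effects was -4.17 (SE 0.912, limma adjusted p = 0.0177), where 2.62% of all genes passed in that direction (64.8% of the passing genes went the other way, or 52.3% after quantile normalization). Of the 6 genes it was the only one to pass. The call was lost without Gctrl GO replicate 2 (limma adjusted p = 0.059). For Gdf9 the effect in GO minus that in NGO was 1.76 (SE 0.575), which did not pass (limma adjusted p = 0.0906). It passed in only 1 of 15 alternatives, without GcKO NGO replicate 1 (difference 2.29). Between P5 and P1, the knockout effect of Gdf9 differed by 1.92 (SE 0.575, limma adjusted p = 0.249), and by limma 0 of the 6 genes passed, where 0.313% of all genes did, with 1 at an unadjusted p under 0.05, where 7.35% of all genes were.

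The share of each gene in the summed TPM of the 6 genes is a description, with no test. In P10 GO the GcKO and Gctrl libraries did not overlap in the shares of Gdf9 and Oosp2, and in P10 NGO they did. At P5, Gdf9 was 69.0% and 69.8% of this sum in DcKO and 78.2% and 74.2% in Dctrl. In P10 NGO its share was 23.8% and 40.1% in GcKO and 40% and 32.2% in Gctrl, and that of Oosp2 was 66.5% and 48.9% in GcKO and 53.1% and 62.9% in Gctrl. In P10 GO the share of Gdf9 was 37.3% and 30.9% in GcKO and 11.0% and 9.58% in Gctrl, whereas Oosp2 made up 44.2% and 49.7% in GcKO and 60.6% and 62.4% in Gctrl. The 6 genes summed to 2013 and 2370.1 TPM in GcKO GO and to 6525 and 6847 TPM in Gctrl GO. The ratio of Gdf9 to Bmp15, 2 ligands that can form a heterodimer, was 5.68 and 7.47 in GcKO GO and 1.20 and 1.68 in Gctrl GO. The same ratio overlapped in P10 NGO, at 9.19 and 21.2 in GcKO and 19.2 and 11.8 in Gctrl, and at P5, at 58.8 and 72.7 in DcKO and 63.3 and 49.3 in Dctrl.

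**Figure D4:**
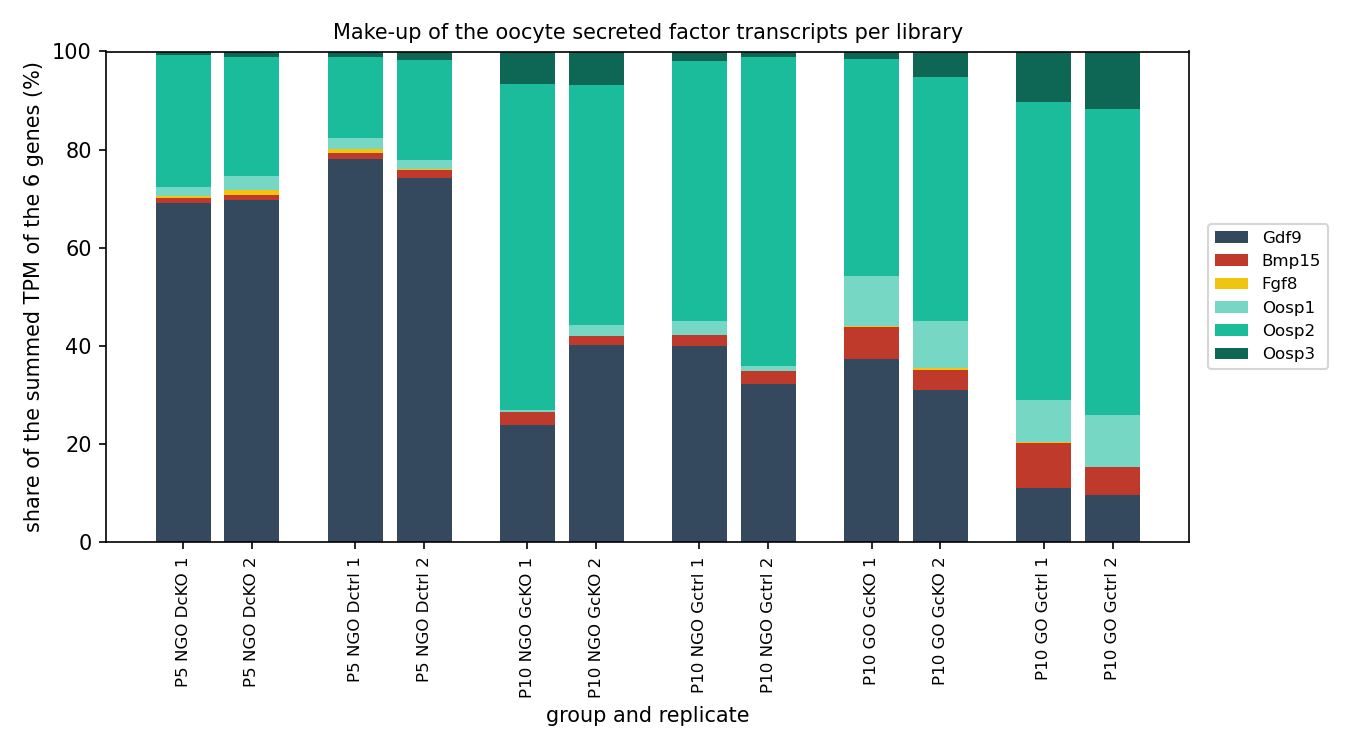
Stacked bars give the percent of the summed TPM of the 6 genes that each gene contributes in every P5 and P10 oocyte library, with knockout libraries left of their controls. Gdf9 makes up 69.0% or more at P5 and, in GO, 37.3% and 30.9% in GcKO against 11.0% and 9.58% in Gctrl.

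Spermatogonia held little of these transcripts, with Fgf8 low in both genotypes and Gdf9 low and almost only in Dctrl. Fgf8 was 3.82 and 0.752 TPM in DcKO and 2.23 and 1.54 TPM in Dctrl, and the groups overlapped. It was the only one of the 6 that passed the filter on low values, and it did not pass the test (limma adjusted p = 0.994). Gdf9 had 0 reads and 1 read in DcKO and 21 and 8 reads in Dctrl, which is 0 and 0.0833 TPM against 1.73 and 0.456 TPM. It was the only one of the 6 with both knockout libraries below both control libraries, as for 18.0% of the genes tested, and it stayed under the filter. Bmp15, Oosp1, Oosp2 and Oosp3 had 0 reads in all 4 libraries, which allows from 0.113 to 0.18 TPM of Bmp15 and from 0.511 to 0.814 TPM of Oosp2. Supporting cell markers summed to 392 and 551 TPM in DcKO and 179 and 135 TPM in Dctrl, and their part in these values was not tested. By limma, 0 of 18671 genes passed in spermatogonia (0% called), while 3004 had an unadjusted p under 0.05.

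Across the 16 oocyte libraries, the levels of the 6 genes on the log2(TPM + 1) scale were correlated with each other, with Pearson r from 0.678 (Fgf8 and Oosp2) to 0.959 (Bmp15 and Oosp1). These libraries share stages and groups, so r describes them and was given no test. Among 7697 genes with a mean of at least 5 TPM, that with the pattern most like Gdf9 was Zp3, an egg coat protein (r = 0.985), followed by Zfp618 (0.963) and Pecr (0.957). For Bmp15 they were Rgs17 (0.983), Fbxw26 (0.982) and Sp110 (0.979), and for Fgf8 Eif4e1b (0.921), Mpv17l (0.883) and the oocyte linker histone H1f8 (0.879). Oosp1 was most like the securin gene Pttg1 (0.982), Oog4 (0.977) and Oog2 (0.976). Oosp2 was most like Rfpl4 (0.986), Use1 (0.984) and Zfp58 (0.98), and Oosp3 like D16Ertd519e (0.969), Zcchc10 (0.964) and Omt2b (0.959).

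Zp3, like Gdf9, fell at P1, in libraries that also entered its correlation with Gdf9. It was 29.9 and 17.1 TPM in DcKO and 74.4 and 134 TPM in Dctrl, a difference of -2.09 (SE 0.333, limma adjusted p = 0.00793), and the call was lost without DcKO replicate 2 (0.0593) or Dctrl replicate 2 (0.081). In P10 GO Zp3 was 2131 and 2177 TPM in GcKO and 1376 and 1359.9 TPM in Gctrl, and this difference did not pass (limma adjusted p = 0.247). Of the egg coat genes Zp1, Zp2 and Zp3 and the placental gene Plac1, which is related to the Oosp genes, 1 of 4 fell at P1, where 0.84% of all genes fell, and by limma 0 of 4 passed at P5, in P10 NGO and in P10 GO, where 1.36%, 1.92% and 13.8% of all genes passed. The P1 differences of Zp1, Zp2 and Plac1 were 1.03, -0.11 and -2.19, and none of these passed.

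Among 12 regulators of oocyte transcription, Tbpl2 fell at P1, at 6.89 and 3.40 TPM in DcKO and 65.0 and 86.7 TPM in Dctrl. The difference was -3.69 (SE 0.326, limma adjusted p = 0.000266), and it was the only one of the 12 to pass at P1, while Figla, Nobox, Lhx8 and Sohlh1 did not (limma adjusted p from 0.65 to 1). At P5 and in P10 NGO, 0 of 12 passed. In P10 GO, 4 of 12 rose and none fell, where 9.12% of all genes rose. Sohlh1 was 33.9 ± 16 TPM in GcKO and 1.03 ± 0.133 TPM in Gctrl (difference 4.02, limma adjusted p = 4.43e-06), Figla 859 ± 150 and 392 ± 107 TPM (1.15, limma adjusted p = 0.00441), Tbpl2 1278 ± 20.0 and 492 ± 139 TPM (1.40, limma adjusted p = 0.0127) and Nobox 141 ± 5.6 and 71.5 ± 0.709 TPM (0.97, limma adjusted p = 0.0155). With 1 GO library left out, Sohlh1 kept its call, Figla lost it without Gctrl replicate 1 (0.0547), Tbpl2 without GcKO replicate 1 (0.0604), GcKO replicate 2 (0.0543) or Gctrl replicate 1 (0.118), and Nobox without GcKO replicate 2 (0.0617) or either Gctrl library (0.0654 and 0.0706). In the same libraries Bmp15, Oosp1 and Oosp3 fell.

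**Figure D5:**
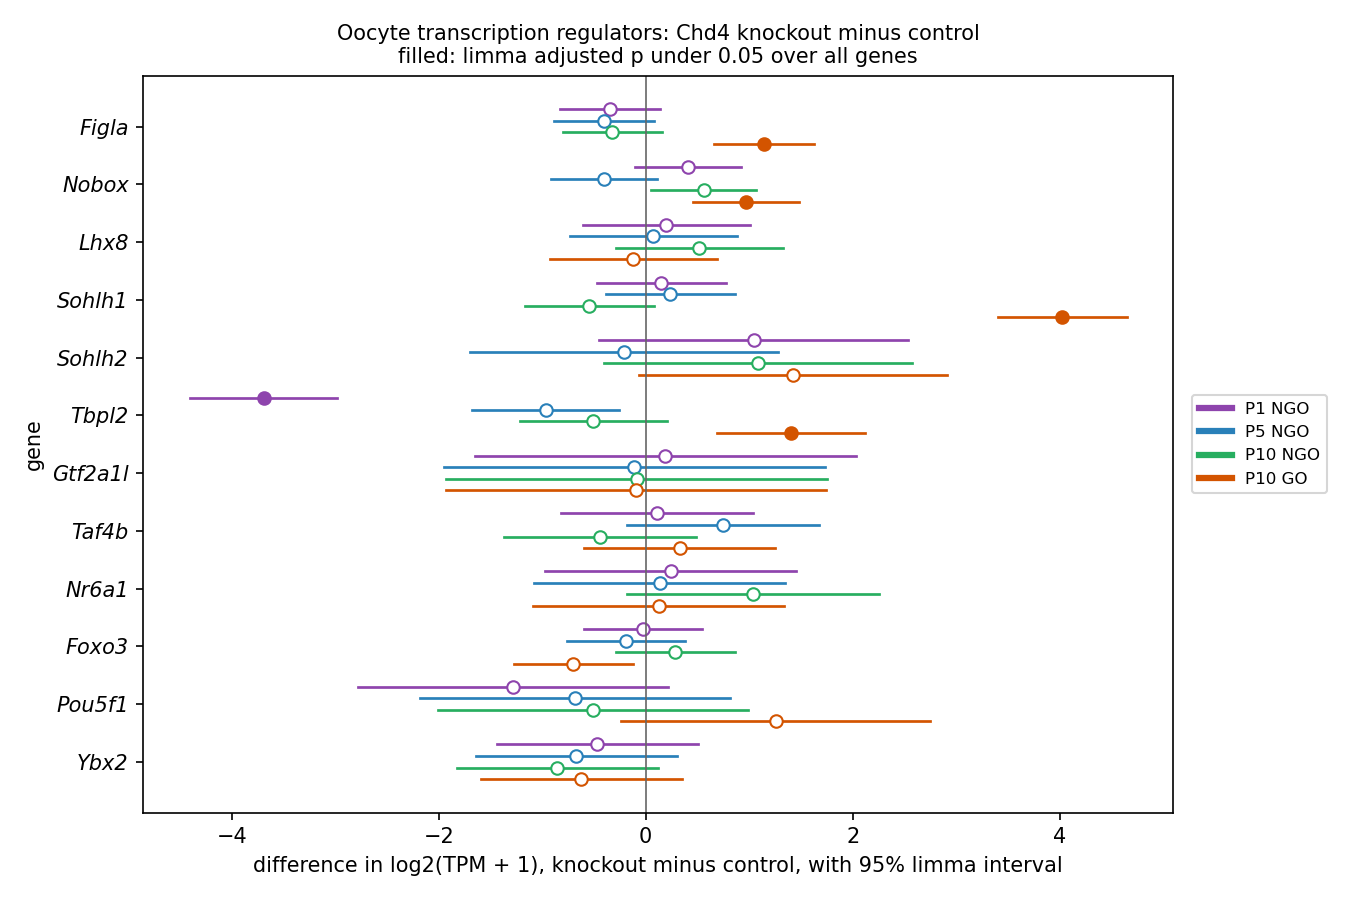
Points give the knockout minus control difference in log2(TPM + 1) of 12 oocyte transcription regulators in the 4 oocyte comparisons, with 95% limma intervals as lines and filled points for adjusted p under 0.05. Tbpl2 lies at -3.69 in P1 NGO and 1.40 in P10 GO, and Sohlh1 at 4.02 in P10 GO.

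During growth in Gctrl, 1 of the 12 regulators rose and 4 fell, where 11.0% of all genes rose and 13.2% fell. Sohlh1 was 1.03 ± 0.133 TPM in GO and 92.2 ± 4.26 TPM in NGO (difference -5.52, limma adjusted p = 4.21e-07), and Figla was 392 ± 107 TPM in GO and 1543 ± 228 TPM in NGO (-1.99, limma adjusted p = 4.49e-05). Gtf2a1l, whose product works with TBPL2, rose to 251 ± 26.2 TPM in GO, against 21.1 ± 22.1 TPM in NGO (4.0, limma adjusted p = 0.00403). These calls held without any single P10 Gctrl library.

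A list of receptors and SMADs of the TGF-beta superfamily, not all of which serve GDF9 or BMP15, was also tested. It showed 0 of 18 tested genes passing at P1, at P5 and in P10 NGO, and 3 rising and 1 falling in P10 GO. Of all genes, 9.12% rose and 4.69% fell in that GO comparison, so that 1 of 18 falling is close to the share of all genes. In the NGO comparisons 1.7% of all genes passed at P1, 1.36% at P5 and 1.92% at P10, and these shares stand beside each list that follows. The type II receptor gene Bmpr2 fell to 13.8 ± 6.22 TPM in GcKO GO, against 39.6 ± 3.87 TPM in Gctrl (difference -1.52, limma adjusted p = 0.0185). Acvrl1, a type I receptor, rose to 7.13 ± 4.39 TPM in GcKO, against 0 TPM in both Gctrl libraries (2.91, limma adjusted p = 0.00309), Smad5 to 5.76 ± 0.227 TPM, against 0.436 ± 0.387 TPM (2.26, limma adjusted p = 0.0336), and Smad9 to 9.53 ± 3.05 TPM, against 0.873 ± 1.20 TPM (2.63, limma adjusted p = 0.00905). Acvrl1 kept its call with 1 GO library left out, while the highest limma adjusted p was 0.105 for Bmpr2 (without GcKO replicate 2) and 0.0896 for Smad9 (without Gctrl replicate 1). Bmpr2 also lost its call without Gctrl replicate 1 (0.0961) or 2 (0.0603), Smad9 without GcKO replicate 2 (0.0543), and Smad5 without any single GO library (between 0.0807 and 0.178).

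Of 10 tested FGF receptors and targets, 0 passed in the 3 NGO comparisons and 2 fell in P10 GO, where 4.69% of all genes fell. Spry4, a feedback inhibitor of FGF signalling, fell to 0.0162 ± 0.0229 TPM in GcKO, against 14.0 ± 0.251 TPM in Gctrl (difference -3.89, limma adjusted p = 4.41e-05). Fgfr2, an FGF receptor, was 0.206 ± 0.292 TPM in GcKO and 1.66 ± 0.334 TPM in Gctrl (-1.16, limma adjusted p = 0.0208). Spry4 kept its call with 1 GO library left out, and Fgfr2 lost it without GcKO replicate 2 (0.0779) or Gctrl replicate 1 (0.088). Of 8 tested processing enzymes and antagonists, Chrdl1, a BMP antagonist, rose in GO (4.73 ± 1.68 TPM in GcKO and 0.00974 ± 0.0138 TPM in Gctrl, difference 2.47, limma adjusted p = 0.000129), and 0 passed in NGO. In GO 9.12% of all genes rose, so that this count is close to the share of all genes.

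Of 13 other tested ligands of these families, Inha rose at P5, as given above, none passed in P10 NGO, and Gdf3 rose at P1, at 12.8 ± 5.93 TPM in DcKO and 2.16 ± 1.52 TPM in Dctrl (difference 2.15, limma adjusted p = 0.0474). In GO, the counts of these ligands that rose and fell were close to the shares of all genes, 9.12% and 4.69%. There Fgf18 rose to 11.1 ± 12.6 TPM in GcKO, against 0 TPM in both Gctrl libraries (3.02, limma adjusted p = 0.0127). Fgf9 fell to 5.29 ± 6.50 TPM, against 23.1 ± 2.40 TPM (-2.48, limma adjusted p = 0.0313). These 3 calls rested on the library set: Gdf3 lost its call without any single P1 library (up to 0.304, without Dctrl replicate 2), Fgf18 without GcKO replicate 2 (0.0515) or either Gctrl library (0.0686 and 0.069), and Fgf9 without GcKO replicate 2 (0.17) or either Gctrl library (0.11 and 0.143). Of 12 listed genes that granulosa and cumulus cells express in response to the oocyte, 6 passed the filter on low values. Of these 6, 0 passed the test in any of the 4 oocyte comparisons of knockout and control. In GO 13.8% of all genes passed. The libraries are of oocytes, so these values cannot show whether granulosa or cumulus cells responded.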

How the data were processed

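The authors deposited TPM, an expression value scaled for gene length and depth, for 16 oocyte and 4 spermatogonia libraries. Trimmomatic 0.39, STAR 2.5.4b, SAMtools 1.9, featureCounts 2.0.1 and GRCm38 are named per the submitters' processing notes, without roles. The annotation, gene lengths, strandedness and the way TPM was made are not given in the sources used here. Values were tested as log2(TPM + 1) with limma 3.58.1 in R 4.3.3 (eBayes with a trend, two-sided), after keeping genes with at least 1 TPM in at least 2 libraries: 20470 in a fit of the 16 oocyte libraries (8 residual degrees of freedom) and 18671 in a fit of the spermatogonia (2 residual degrees of freedom). Benjamini-Hochberg adjustment ran over all genes of a comparison, with a threshold of 0.05, and the procedure was tested on simulated data. The scale understates changes of low genes. Depth and reads were recovered as the scale at which TPM times GENCODE M21 exon length gives whole reads (98.7% to 99.2% of low values within 0.05). The members and lists were chosen with earlier results of these data known. All 6 genes, Chd4, the 12 regulators, and per list up to 3 genes with the smallest p among those past the test were named, and the 3 genes most correlated with each member. Tables and figures were made in Python 3.11.15 with matplotlib 3.10.9, numpy 2.4.6 and pandas 2.3.3.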

Additional observations from a re-analysis of the deposited data

Results flagged for a closer look

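Only the secreted factors and the oocyte transcription regulators were screened here for knockout effects that differed between oocyte groups. In a test of the difference itself, 1527 of all 20470 genes passed between P10 GO and NGO. Between P5 and P1 NGO, 64 passed. Of the screened genes, Oosp3 passed between P10 GO and NGO (log2 difference of the effects -4.17). So did Sohlh1 (4.57), Tbpl2 (1.91) and Figla (1.47), and Tbpl2 also passed between P5 and P1 NGO (2.73). The limma adjusted p of these differences were 0.0177, 0.000142, 0.0279, 0.0158 and 0.0307 in that order. Over the 15 alternatives, the call was kept in 15 for Sohlh1, 13 for Oosp3 and 9 for Figla. For Tbpl2 it was kept in 7 between GO and NGO and in 5 between P5 and P1. Among the alternatives that lost a call, Oosp3 lost it without Gctrl GO replicate 2, and Figla without Gctrl GO replicate 1. Tbpl2 lost it between GO and NGO without Gctrl GO replicate 1, and between P5 and P1 without P5 Dctrl replicate 2. Gdf9 was above its controls in both GcKO libraries of P10 GO (difference 0.11) and below them in both knockout libraries of P1 NGO, P5 NGO and P3 spermatogonia, and the difference of the GO effect from each of these was not tested.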

How the results depend on the processing

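The direction of all 71 differences examined in the alternatives was kept in every alternative. Not every difference of the 6 genes was among them. Those of Fgf8 between knockout and control and that of Oosp3 in P10 NGO were left out, so their direction was not examined. With a fit of only the groups compared, 0 of the 6 secreted factors passed in GO and at P1 for knockout against control. The same held in P5 against P1 in Dctrl and DcKO and in GO against NGO in GcKO. In each of these comparisons 0 of all 20470 genes passed in that fit. In P10 against P5 controls 0 of the 6 passed, where 2429 of all genes did. In the difference of effects between GO and NGO 0 of the 6 passed, where 560 of all genes did. In GO against NGO in Gctrl 2 passed, where 1072 of all genes did. This fit has 2 residual degrees of freedom, or 4 for the difference of effects. With a pseudocount of 0.1 TPM, 2 passed at P1, 1 in GO and 6 in P5 against P1 in DcKO. Of all 20470 genes 366, 2998 and 1119 passed there, against 348, 2827 and 1051 in the main fit. Bmp15 and Oosp1 lost their call in GO (limma adjusted p = 0.0813 and 0.158). In P5 against P1 in Dctrl, where 899 of all genes passed, Fgf8 gained a call (limma adjusted p = 0.0216) and Oosp2 lost it (0.0998). With no filter, 2 passed in GO, where Bmp15 was lost (limma adjusted p = 0.0606), 2 in P5 against P1 in Dctrl and 1 in P10 against P5 controls. Of all 32817 genes tested with no filter, 2600, 1024 and 4025 passed in these comparisons. In P10 against P5 controls quantile normalization also gave 1, where 4262 of 20470 genes passed. In P10 NGO knockout against control, a 5 TPM filter and quantile normalization each gave 1. Over all genes they gave 428 of 13437 and 954 of 20470, against 393 of 20470 in the main fit. Leaving out 1 library gave 0 to 1 in P10 NGO, 1 to 2 in GO, 2 in P5 against P1 in Dctrl, 3 to 6 in GO against NGO in GcKO, 0 to 2 in P10 against P5 controls and 0 to 2 in the difference between GO and NGO. There the lone library of a group is assumed to vary like the other groups. The cause was not tested. Libraries with equal replicate numbers showed no shared deviation over genes (correlation of deviations -0.049 to 0.047 over 29 pairs of groups). This cannot show whether equal numbers share an animal, litter or day, which no source gives. A replicate block changed no count of the 6 genes, and a replicate block within each stage, added after seeing the data, gave 0 at P1 and 1 in GO. With the block within each stage, 72 of all 20470 genes passed at P1 and 2254 in GO, against 348 and 2827 in the main fit. Depth limits Fgf8, Oosp1 and Oosp3 at P1 and Fgf8 in P10 NGO, where no group had more than 8 reads.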
